A study of Mus musculus with 56 samples.

Results

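Cell cycle and DNA replication genes were followed in the front paws of mice immunised for collagen-induced arthritis (CIA) and of mice without CIA. The 41 genes were taken by symbol from a list of 15 S phase genes and 26 mitotic genes. All 41 were found among the 53431 features of the expression table, 39 of them with the same identifier version as the GENCODE M21 annotation (Kif11 and Kif20a differed in version). All 41 had a mean of at least 1 FPKM in some group (fragments per kilobase of transcript, scaled to each library's mapped fragments), which was the filter for testing and left 14700 genes.

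The mice were male DBA/1 mice, a strain prone to this model, and each library is taken here as 1 mouse, as the stated group size of 13 mice implies. In the 4 immunised groups, chicken type II collagen was given on days 1 and 21. Antibody injections into the peritoneum began on day 21 and were given 2 times a week over 5 weeks. The isotype group (13 mice) received an IgG1 isotype control at 30 mg/kg. The anti-TNF group (13 mice) received clone XT3.11 at 30 mg/kg, the anti-IL-6 group (13 mice) clone MP5-20F3 at 10 mg/kg, and the combination group (13 mice) both antibodies at these doses. Anti-IL-6 mice (10 mg/kg) were thus not matched in antibody dose to isotype mice (30 mg/kg) or to combination mice. The no CIA group held 4 mice, for which the labels name no antibody. Paws were taken on day 91, after dosing had ended, so every treated group is compared well past its last injection, and ages are not given.

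A dividing cell copies its DNA in S phase and separates the copies in mitosis, and each step has its own set of transcripts. S phase genes load and drive the replicative helicase (Cdc6, Cdt1, the Mcm genes, Gins2), supply deoxynucleotides (Rrm1, Rrm2, Tyms, Tk1) and serve the replication fork (Pcna, Uhrf1). Mitotic genes encode the entry kinases and cyclins, the spindle and kinetochore, and the machinery of division (Cdk1, Ccnb1, Plk1, Ndc80, Prc1 and others). In a paw, dividing cells are found mainly in the basal epidermis and hair matrix, in marrow inside the bones, and among the cells that expand in an inflamed joint.

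The 2 sets are known for different promoter elements, E2F sites in S phase genes and the CHR (cell cycle genes homology region) next to CCAAT boxes in mitotic genes. RefSeq windows on GRCm38.p6, from 250 bases before to 50 bases after a transcript start, matched 34 of the 41 members. Stretches of 6 genes are shown because they carry the letters that set the 2 sets apart, each ending at the base before the start. An E2F match was any of TTCGCGC, the variant TTGGCGC, the variant TTCCCGC or the variant TTGCCGC. A CHR match was TTTGAA or the variant TTCGAA. The box was CCAAT. All were searched on both strands. Overlapping E2F matches were counted separately, and capitals mark every match within the bases shown. The Cdk1 window also holds E2F letters before the stretch shown (TTGGCGC at -178 and TTCGCGC at -130).
Mcm6 (chr1:128359706-128359825, minus strand, E2F and CCAAT): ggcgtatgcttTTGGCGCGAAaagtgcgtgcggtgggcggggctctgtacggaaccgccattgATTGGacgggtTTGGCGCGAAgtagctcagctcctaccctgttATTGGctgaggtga
Rrm1 (chr7:102441575-102441694, plus strand, E2F and CCAAT): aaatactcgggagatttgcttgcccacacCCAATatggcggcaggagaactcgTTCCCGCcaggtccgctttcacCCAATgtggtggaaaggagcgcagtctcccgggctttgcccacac
Cdk1 (chr10:69352913-69353032, minus strand, CHR and CCAAT): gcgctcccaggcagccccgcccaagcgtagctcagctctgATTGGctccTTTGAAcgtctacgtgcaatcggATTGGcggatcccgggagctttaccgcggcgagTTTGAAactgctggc
Top2a (chr11:99024190-99024309, minus strand, CHR and CCAAT): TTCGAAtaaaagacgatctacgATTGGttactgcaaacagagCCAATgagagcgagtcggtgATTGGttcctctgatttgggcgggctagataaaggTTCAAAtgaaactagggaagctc
Ube2c (chr2:164769809-164769928, plus strand, CHR and CCAAT): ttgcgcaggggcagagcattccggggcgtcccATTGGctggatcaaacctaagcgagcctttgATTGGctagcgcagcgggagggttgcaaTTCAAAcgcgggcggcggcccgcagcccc
Cdc20 (chr4:118437344-118437463, minus strand, CHR and CCAAT): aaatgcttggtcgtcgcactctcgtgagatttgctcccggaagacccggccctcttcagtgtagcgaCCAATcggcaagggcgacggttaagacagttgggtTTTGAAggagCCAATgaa

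E2F letters were in 11 of the 15 S phase windows (73.3%) and 4 of the 22 mitotic windows (18.2%), against 9.57% of all 32851 windows. CHR letters were in 2 S phase windows (13.3%) and 18 mitotic windows (81.8%), against 19.2% of all windows. CCAAT was in 11 S phase windows (73.3%) and 18 mitotic windows (81.8%), against 37.4% of all windows, and CHR together with CCAAT in 16 mitotic windows (72.7%) against 7.53% of all. Birc5, Nusap1, Tk1 and Tyms held none of the 3 motifs in these windows, which says only that these letters are not there. Windows for Aurkb, Ccna2, Foxm1, Gins2, Kif20a, Mcm4 and Tpx2 were not used here.

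Among the libraries, 1 stood apart. Anti-IL-6 replicate 13 had a median correlation of 0.891 with the other libraries, against 0.936 for the next lowest, the highest macrophage score (6.82) and the highest mature neutrophil score (5.99), and the highest level of 23 of the 41 genes among anti-IL-6 mice. For each comparison of the anti-IL-6 group with another group, some values below are also given without this library. The interaction, the counts of other genes and tissue markers, and the fits with covariates are given with it included.

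Every one of the 41 genes was above 1 FPKM in each of the 56 libraries. Over all libraries the highest mean was that of Pcna, the sliding clamp of the replication fork, at 59.1 FPKM, above 90.4% of tested genes. Then came Birc5 (survivin, of the chromosomal passenger complex) at 36.1, Ube2c (which loads ubiquitin for the anaphase-promoting complex) at 35.5, Cdc20 (activator of that complex) at 29.6, Cdk1 (the mitotic kinase) at 29.5 and Tk1 (thymidine kinase) at 26.3 FPKM. Among isotype mice the ranges of neighbours in this order overlapped, except those of Pcna and Birc5, with SDs of 3.38 FPKM for Birc5, 4.71 for Ube2c, 5.69 for Cdc20 and 4.26 for Cdk1 (n = 13). The lowest means were those of Cdc6, a helicase loader, at 2.02, Cenpe, a kinetochore motor, at 2.20, and Bub1, a checkpoint kinase, at 2.53 FPKM. The median over members was 13.4 FPKM for S phase and 9.16 FPKM for mitotic genes. FPKM is scaled by length, so these levels can be set side by side.

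The spread between mice of a group was of similar size in both sets. The median coefficient of variation between isotype mice was 16.0% over S phase and 16.1% over mitotic genes, and it reached 22.8% and 21.1% in the anti-TNF group and 25.5% and 28.2% among the 4 no CIA mice. Under anti-IL-6 it was 18.2% and 14.7%, and in the combination group 18.1% and 18.0%. Gins2, a subunit of the active helicase, and Rrm1, the large subunit of ribonucleotide reductase, stood at 14.8 ± 1.38 and 13.8 ± 1.61 FPKM in isotype mice (SD, n = 13). Mki67, the proliferation marker Ki-67, was at 14.2 ± 3.55 FPKM without CIA (n = 4), 14.7 ± 2.09 in isotype, 15.0 ± 3.14 under anti-TNF, 16.1 ± 1.94 under anti-IL-6 and 14.4 ± 2.40 in the combination group (SD, n = 13 each). All 5 of these means lay within 1 SD of the isotype mean.

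**Figure D1:**
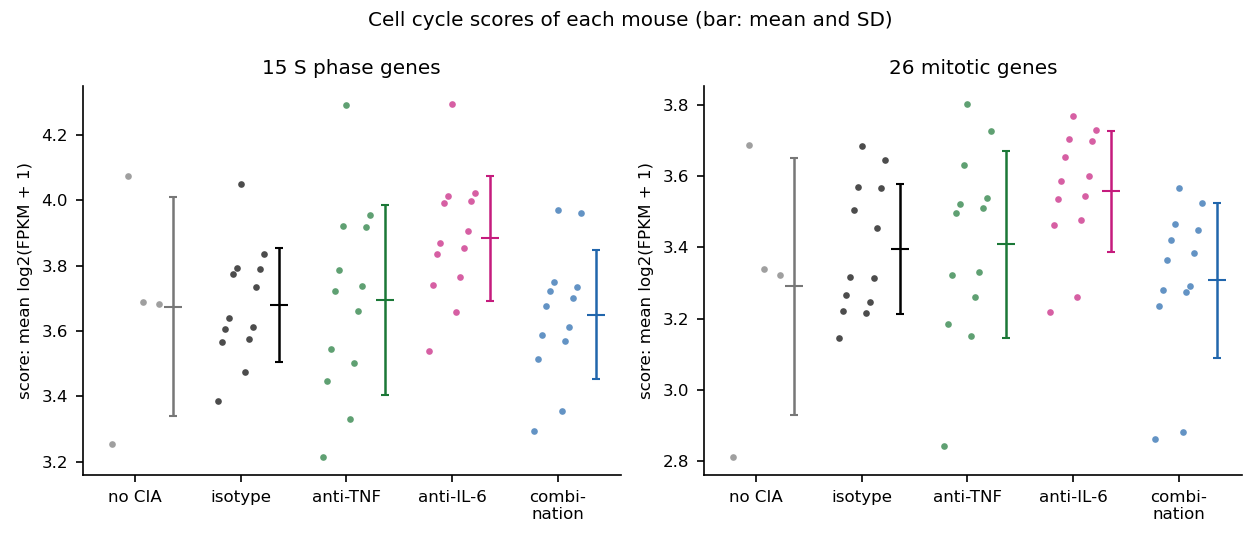
Mean log2(FPKM + 1) over the 15 S phase genes (left) and the 26 mitotic genes (right) in each mouse, by group. Points are mice and bars are the group mean and SD. The anti-IL-6 means, 3.88 and 3.56, are the highest of the 5 groups, and every group's range overlaps every other's.

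Taken as 1 score per mouse (the mean log2(FPKM + 1) over a set), S phase genes stood at 3.67 ± 0.34 without CIA (SD, n = 4) and at 3.68 ± 0.17 in isotype, 3.69 ± 0.29 under anti-TNF, 3.88 ± 0.19 under anti-IL-6 and 3.65 ± 0.20 in the combination group (SD, n = 13 each). Mitotic genes stood at 3.29 ± 0.36, 3.40 ± 0.18, 3.41 ± 0.26, 3.56 ± 0.17 and 3.31 ± 0.22 in the same order. The anti-IL-6 mean was highest in both sets. Group membership accounted for a median of 15.0% of the variance of S phase and 14.3% of mitotic genes, against 9.45% over all tested genes. Whole paws were sequenced, so a different number of dividing cells and a different RNA content per cell cannot be told apart.

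No member passed the test in any comparison. All 56 libraries entered 1 limma fit on log2(FPKM + 1) with 51 residual degrees of freedom, P-values were adjusted by Benjamini-Hochberg over all 14700 genes, and a call needs an adjusted p under 0.05. In the F test over the 5 groups, 0 of 41 members were called (0.306% of all tested genes were), and the smallest adjusted p among them was 0.144, for Rrm2. Without adjustment, 15 of 41 had p under 0.05 in that test, against 12% of all tested genes. What follows describes direction and size.

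The isotype and no CIA means lay close together, with 95% intervals over the 41 genes that ran from -0.53 at the lowest to 0.71 at the highest. Mature neutrophil scores ran from 1.61 to 4.95 in isotype mice and from 1.64 to 2.01 without CIA. Some isotype paws were thus at the no CIA level for these markers, and the group mean mixes them with others. The lowest scores under anti-TNF (1.62) and in the combination group (1.91) were also at that level. Comparing isotype with no CIA mice, 0 of 41 members were called (0.156% of all tested genes were) and 1 had an unadjusted p under 0.05 (16.7% of all tested). The median difference was -0.02 on the log2(FPKM + 1) scale over S phase genes, 6 of 15 being higher, and 0.10 over mitotic genes, 23 of 26 being higher. Of all tested genes 55.8% were higher and 44.2% lower, with a median of 0.03. The 8 spindle and cytokinesis genes (Kif11, Kif20a, Kif23, Tpx2, Nusap1, Prc1, Anln and Hmmr) were all higher, by 0.05 to 0.27, and so were the 5 kinetochore and checkpoint genes (Bub1, Bub1b, Cenpe, Cenpf and Ndc80), by 0.04 to 0.18.

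Rrm2, the regulated small subunit of ribonucleotide reductase, differed most from the no CIA mice. It stood at 17.7, 10.1, 8.13 and 11.5 FPKM in the 4 no CIA mice and at 12.1, 14.2 and 19.9 FPKM (lowest, median and highest) in the 13 isotype mice. The isotype mice lay above 3 of the 4 no CIA mice, and the fourth fell inside their range. The difference was 0.36 ± 0.17 (SE) with a limma adjusted p of 0.291. Tk1 went the other way, at 38.2, 31.1, 19.1 and 25.0 FPKM without CIA against 19.8, 23.4 and 28.2 in isotype mice, a difference of -0.23 ± 0.15 (adjusted p = 0.391). Kif20a, a cytokinesis motor, was at 8.17 against 6.69 FPKM, a difference of 0.27 ± 0.17 (adjusted p = 0.376). Values for Rrm1, Cdk1 and Hmmr were 0.17, 0.23 and 0.18.

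The no CIA mice decide these directions. No CIA replicate 1 was highest and replicate 3 lowest of the 4 in both scores (4.07 and 3.25 for S phase, 3.69 and 2.81 for mitotic), and they also stood at the ends for muscle markers (score 8.67 and 10.8). Without replicate 3, 2 of 15 S phase and 7 of 26 mitotic genes were higher in isotype mice (medians -0.11 and -0.05). Without replicate 1, 13 of 15 and 26 of 26 were (medians 0.11 and 0.25). By a division of the index numbers made here, all 4 no CIA libraries share a stretch with 2 isotype libraries. Within it the isotype mean was higher by 0.27 for S phase and 0.15 for mitotic scores. With the stretches as a covariate Rrm1 was called, as were 2744 of all tested genes, against 23 without the covariate.

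**Figure D2:**
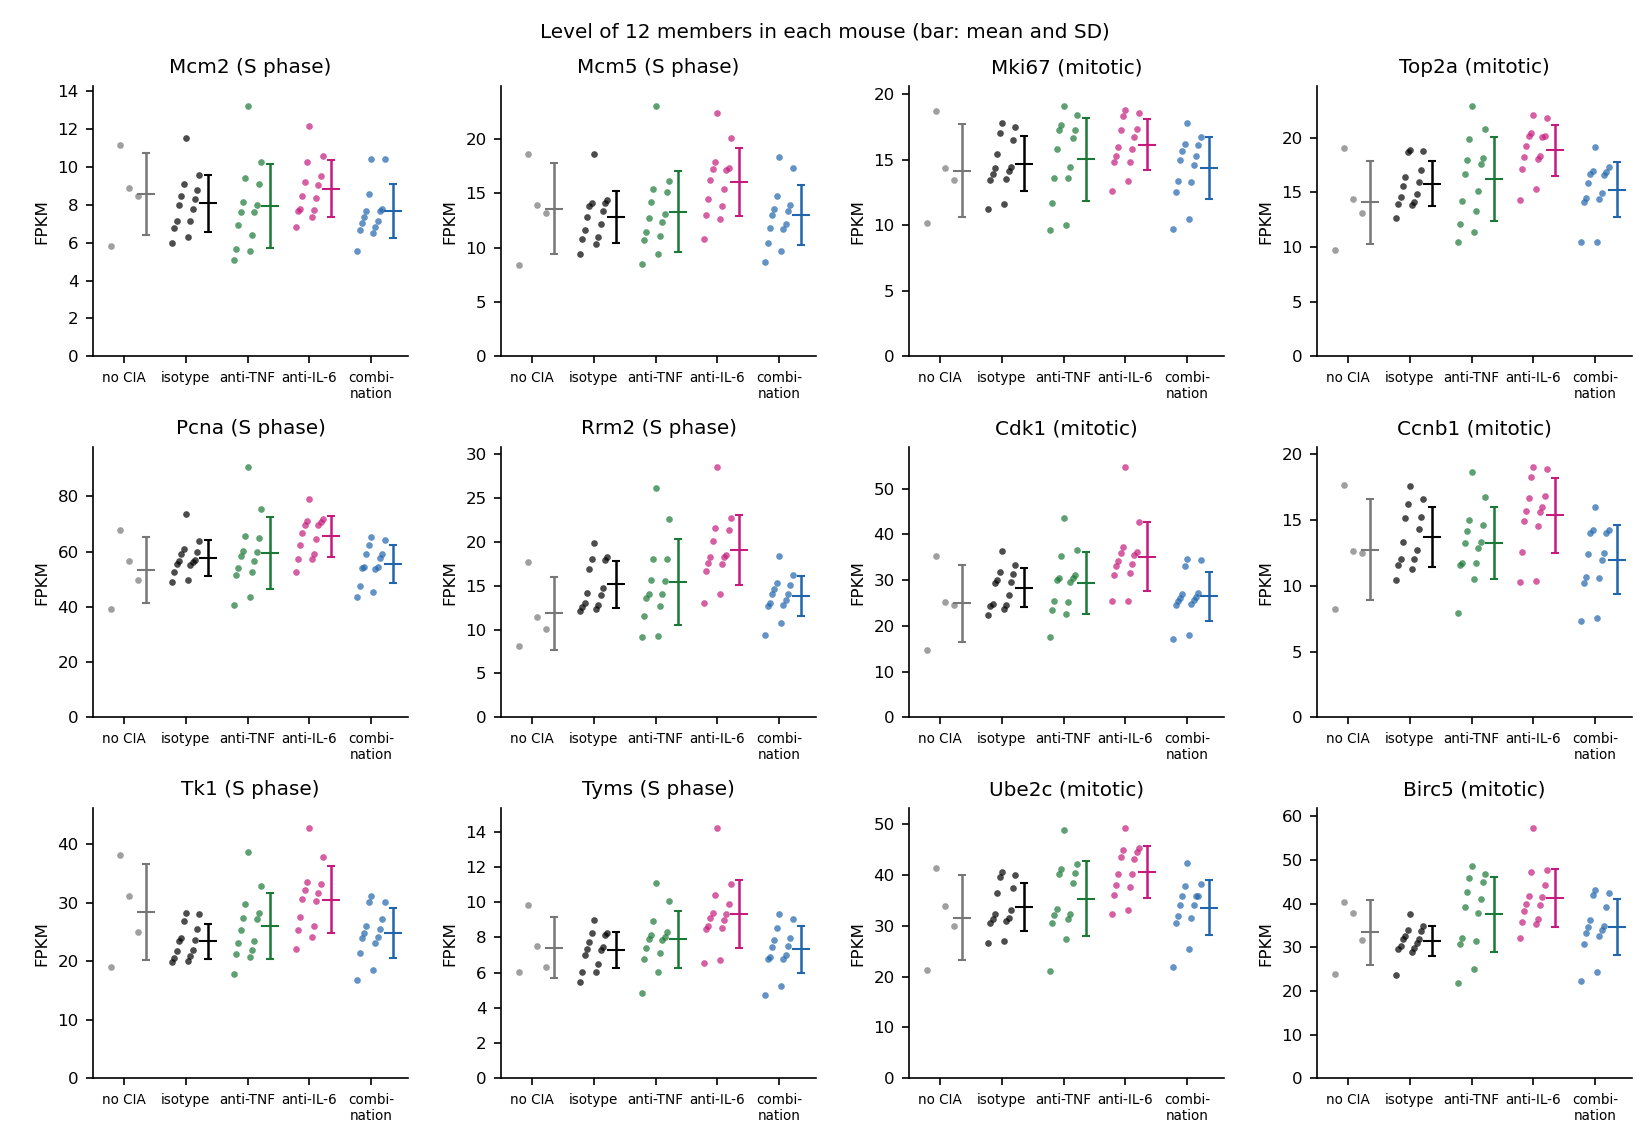
FPKM of 12 members in each mouse, by group, with axes from 0. Points are mice and bars are the group mean and SD. The anti-IL-6 mean is the highest of the 4 antibody groups in all 12, for example 41.4 FPKM for Birc5 against 31.5 in isotype, and the ranges of these groups overlap.

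Mice that had received anti-IL-6 had higher mean levels of all 41 genes than isotype mice, by a median of 12.6% of the isotype mean (range 3.17% to 31.3%). None of the 41 was called (0.952% of all tested genes were), and 17 had an unadjusted p under 0.05 (41.5%, against 12.8% of all tested genes). The median difference was 0.18 over S phase and 0.14 over mitotic genes, against 0.03 over all tested genes, of which 60% were higher. The 9 S phase genes among the 17 included all 4 nucleotide supply genes, and the 8 mitotic ones none of the 8 spindle and cytokinesis or 5 kinetochore genes. This ordering by role was made with the values known and was not tested.

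Birc5 came nearest to the threshold. It stood at 23.6, 31.8 and 37.6 FPKM (lowest, median and highest) in isotype mice and at 32.2, 39.9 and 57.3 under anti-IL-6, and all 13 anti-IL-6 mice were above the isotype mean. The difference was 0.37 ± 0.10 (SE), with a 95% interval of 0.17 to 0.58 and a limma adjusted p of 0.0595. Levels under anti-TNF (21.7, 39.2 and 48.6 FPKM) and in the combination group (22.3, 34.8 and 43.0 FPKM) overlapped both.

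The nucleotide genes gave the next values. Tk1 was at 22.1, 30.6 and 42.7 FPKM under anti-IL-6 against 19.8, 23.4 and 28.2 in isotype, with 12 of 13 anti-IL-6 mice above the isotype mean (difference 0.36 ± 0.10, adjusted p = 0.0665). Tyms, thymidylate synthase, was at 6.52, 9.12 and 14.2 FPKM against 5.46, 7.34 and 8.99 (difference 0.31 ± 0.09, adjusted p = 0.0975). Rrm2 was at 13.1, 18.3 and 28.5 FPKM against 12.1, 14.2 and 19.9 (difference 0.31 ± 0.12, adjusted p = 0.224). Of the 13 anti-IL-6 mice, 8 lay above every isotype mouse for Tk1, 7 for Tyms and 5 for Rrm2, and the highest value of each, as of Birc5, was that of replicate 13. Rrm1 differed by 0.13 ± 0.06.

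Without anti-IL-6 replicate 13 all 41 members were still higher than in isotype, with medians of 0.16 over S phase and 0.14 over mitotic genes. Birc5 then differed by 0.34 (limma adjusted p = 0.129), Tk1 by 0.32, Tyms by 0.26 and Rrm2 by 0.26, and 66 of all tested genes were called in place of 140. The 2 least correlated libraries were both of the anti-IL-6 group (replicates 13 and 6). Without them the smallest limma adjusted p was 0.183 and 43 genes were called.

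Birc5, Tk1 and Tyms passed the threshold in some other fits and not in others. All 3 were called after median of ratios scaling (smallest limma adjusted p = 0.0188), Birc5 and Tk1 when the 2 groups were fitted alone, and Birc5 with muscle and epidermis scores as covariates. After that scaling all 41 members were still higher, with a smaller S phase median, 0.15 against 0.18 without it. All 3 were also called without anti-IL-6 replicate 7, the mouse with the lowest score of its group in both sets. Leaving out any other mouse gave 0 to 2 calls. Over all alternatives the adjusted p ran from 0.0103 to 0.433 for Birc5 and from 0.0293 to 0.426 for Tk1.

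Of the licensing and helicase genes, Mcm5 stood highest in difference. Mcm5, a subunit of the helicase ring, was at 10.8, 16.3 and 22.4 FPKM under anti-IL-6 and at 9.45, 12.8 and 18.6 in isotype (difference 0.30 ± 0.12, adjusted p = 0.223), with 11 of 13 anti-IL-6 mice above the isotype mean. Mcm2, of the same ring, differed by 0.12 ± 0.10 and Cdt1, which loads the ring, by 0.25 ± 0.10. Pcna was at 65.5 ± 7.48 FPKM against 57.7 ± 6.35 (SD, n = 13 each, overlapping ranges), a difference of 0.18 ± 0.08 (limma adjusted p = 0.347). The 9 genes of this role spanned 0.07 (Gins2) to 0.30.

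The mitotic markers lay in the same direction with smaller differences for the spindle genes. Cdk1 was at 25.4, 34.1 and 54.7 FPKM under anti-IL-6 and at 22.4, 29.4 and 36.3 in isotype (difference 0.29 ± 0.12, adjusted p = 0.243). Top2a, which untangles chromosomes, was at 14.3, 19.2 and 22.1 FPKM against 12.7, 15.6 and 18.9 (difference 0.24 ± 0.10, adjusted p = 0.240). Ube2c differed by 0.27 ± 0.10, Mki67 by 0.13 ± 0.09 and Ccnb1 (cyclin B1) by 0.14 ± 0.11, and the least difference was that of Cenpf, at 0.04 ± 0.07. The log2(FPKM + 1) scale understates the difference of low genes such as Cenpf and Cenpe, whose means differed by 3.38% and 8.48%.

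**Figure D3:**
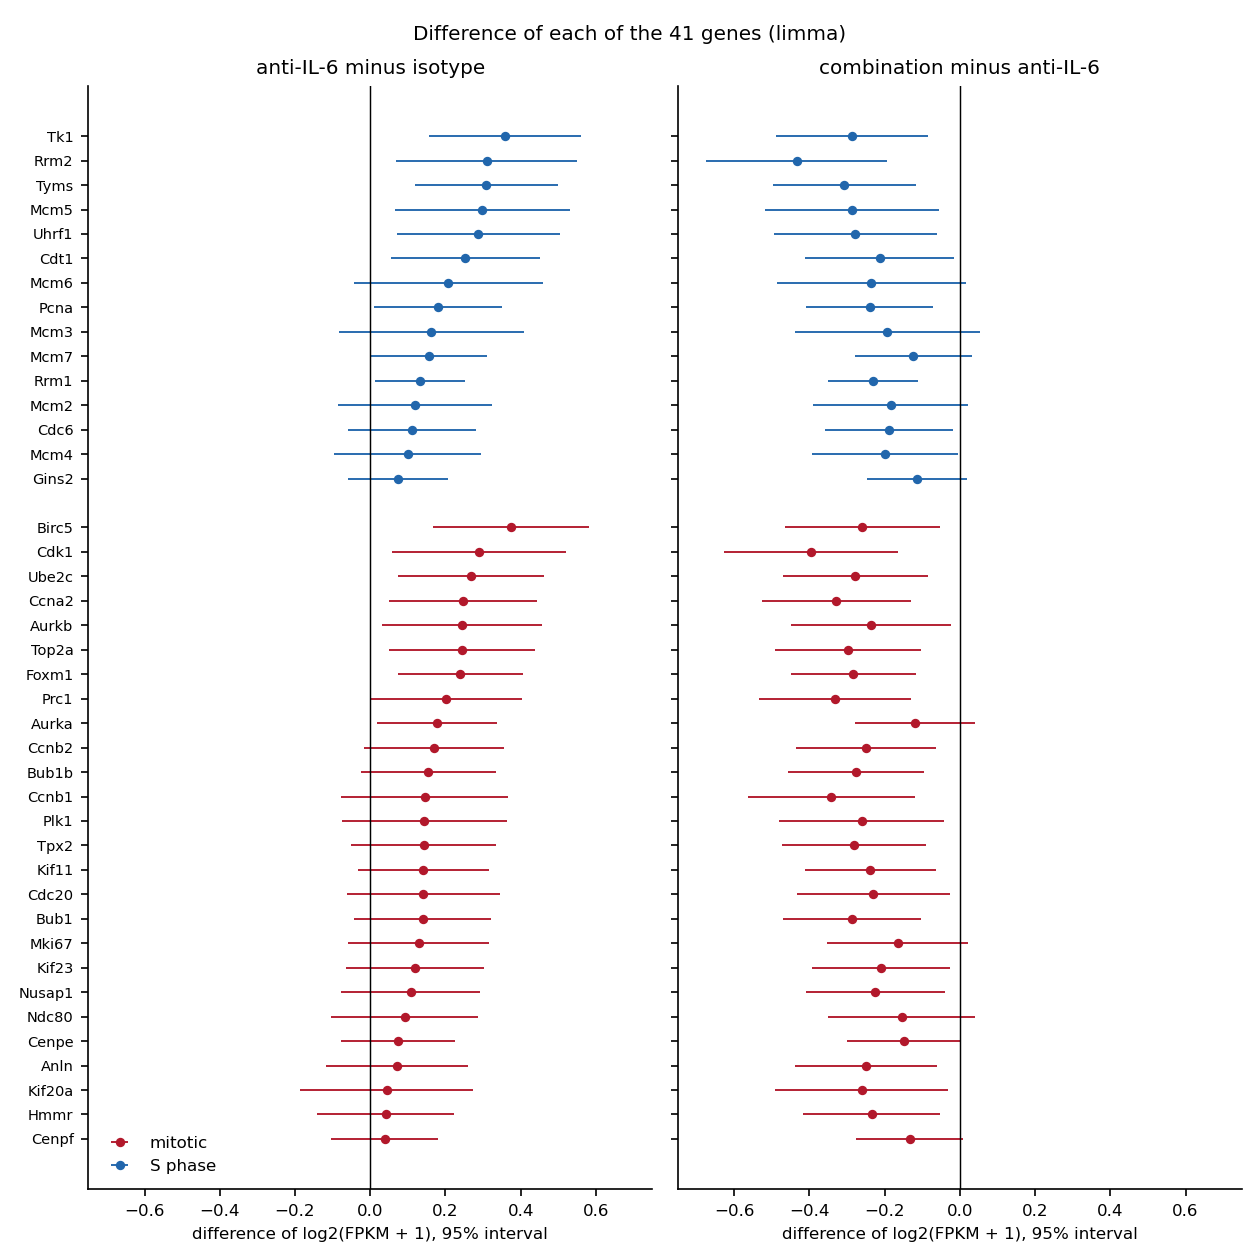
Difference of log2(FPKM + 1) with its 95% interval for each of the 41 genes, S phase above and mitotic below, for anti-IL-6 minus isotype (left) and combination minus anti-IL-6 (right). All 41 estimates are above 0 on the left and below 0 on the right, and both panels use the same 13 anti-IL-6 mice.

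The combination mice stood below the anti-IL-6 mice in all 41 genes, by a median of 17.5% of the anti-IL-6 mean. Again 0 of 41 were called (0.102% of all tested genes were), while 31 had an unadjusted p under 0.05 (75.6%, against 11.4% of all tested genes), and 65.5% of all tested genes were lower. The median difference was -0.23 over S phase and -0.25 over mitotic genes, against -0.04 over all tested genes. This comparison uses the same anti-IL-6 mice as the one with isotype, so the 2 are not independent of each other. All 8 spindle and cytokinesis genes and 7 of the 8 entry kinases and cyclins were among the 31.

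Rrm2 again had the largest difference, with 9.35, 14.0 and 18.4 FPKM in the combination group against 13.1, 18.3 and 28.5 under anti-IL-6. No combination mouse (0 of 13) was above the anti-IL-6 mean, though the ranges overlapped. The difference was -0.43 ± 0.12 (SE), with a 95% interval of -0.67 to -0.19 and an adjusted p of 0.187. Cdk1 was at 17.0, 26.1 and 34.7 FPKM against 25.4, 34.1 and 54.7, a difference of -0.40 ± 0.12 (adjusted p = 0.223), also with 0 of 13 combination mice above the anti-IL-6 mean. Ccnb1 was at 7.35, 12.4 and 16.0 FPKM against 10.3, 15.7 and 19.0, a difference of -0.34 ± 0.11 (adjusted p = 0.293).

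The other members followed in size. Prc1, which bundles microtubules of the midzone, differed by -0.33 ± 0.10, Tyms by -0.31 ± 0.09, Tk1 by -0.29 ± 0.10 and Top2a by -0.30 ± 0.10. Rrm1 had the smallest adjusted p, 0.158, with a difference of -0.23 ± 0.06, at 12.8 ± 1.06 against 15.2 ± 1.46 FPKM (SD, n = 13 each). Mcm5 differed by -0.29 ± 0.12, Pcna by -0.24 ± 0.08, Mcm2 by -0.18 ± 0.10 and Mki67 by -0.17 ± 0.09. Gins2 had the smallest difference, -0.11 ± 0.07. Without anti-IL-6 replicate 13 all 41 were still lower (medians -0.18 and -0.23), with Rrm2 at -0.38 and Cdk1 at -0.34, and the smallest limma adjusted p was 0.257.

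No difference between anti-TNF and isotype mice was detectable in these genes. Of the 41 members 22 were higher and 19 lower (54.3% of all tested genes were higher and 45.7% lower), with medians of 0.004 over S phase and 0.005 over mitotic genes. None was called (0% of all tested genes were), and 1, Birc5, had an unadjusted p under 0.05 (5.47% of all tested genes did), at 37.6 against 31.5 FPKM (difference 0.22 ± 0.10, adjusted p = 0.908). Differences of Tk1, Tyms and Cdt1 were 0.13, 0.09 and 0.09, and those of the kinases Aurka and Aurkb 0.13 and 0.08. The 95% intervals of the 41 members ran from -0.31 at the lowest to 0.42 at the highest. The count of higher members is not stable, running from 11 to 34 of 41 when 1 library was left out, with 32 after index run and 14 after muscle and basal epidermis scores were taken as covariates.

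Combination and isotype means were also close, with 95% intervals from -0.45 to 0.32. Here 32 of 41 members were lower and 9 higher (53.4% of all tested genes were lower and 46.6% higher), with medians of -0.03 over S phase and -0.09 over mitotic genes, 0 called (0% of all tested genes were) and 1 at an unadjusted p under 0.05 (5.78% of all tested genes). Kif20a differed by -0.22 ± 0.11, Ccnb1 by -0.20 ± 0.11 and Hmmr, a spindle assembly protein, by -0.19 ± 0.09, and of the S phase genes Rrm2 by -0.12, Mcm4 by -0.10 and Rrm1 by -0.10. Against anti-TNF mice, 40 of 41 members were lower in the combination group (61.8% of all tested genes were), with medians of -0.04 and -0.11 and 0 called (0% of all tested genes). Prc1 differed there by -0.16, Hmmr and Cdc20 by -0.14, Rrm2 by -0.11, Rrm1 by -0.10 and Tyms by -0.09, and no member had an unadjusted p under 0.05 (1.09% of all tested genes did).

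Anti-TNF mice lay below anti-IL-6 mice in all 41 genes (58.8% of all tested genes were lower), with medians of -0.17 over S phase and -0.15 over mitotic genes. None was called (0% of all tested genes were), and 12 had an unadjusted p under 0.05 (29.3%, against 4.68% of all tested genes). Rrm2 was at 9.12, 14.1 and 26.2 FPKM under anti-TNF against 13.1, 18.3 and 28.5 (difference -0.32 ± 0.12, adjusted p = 0.976). Mcm5 differed by -0.27, Uhrf1, which guides the copying of DNA methylation, by -0.25, Cdk1 by -0.26, Top2a by -0.23 and Ube2c by -0.21. The doses differed (30 and 10 mg/kg), so this is no comparison at matched dose. Without anti-IL-6 replicate 13 the medians were -0.13 and -0.13, with all 41 lower.

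**Figure D4:**
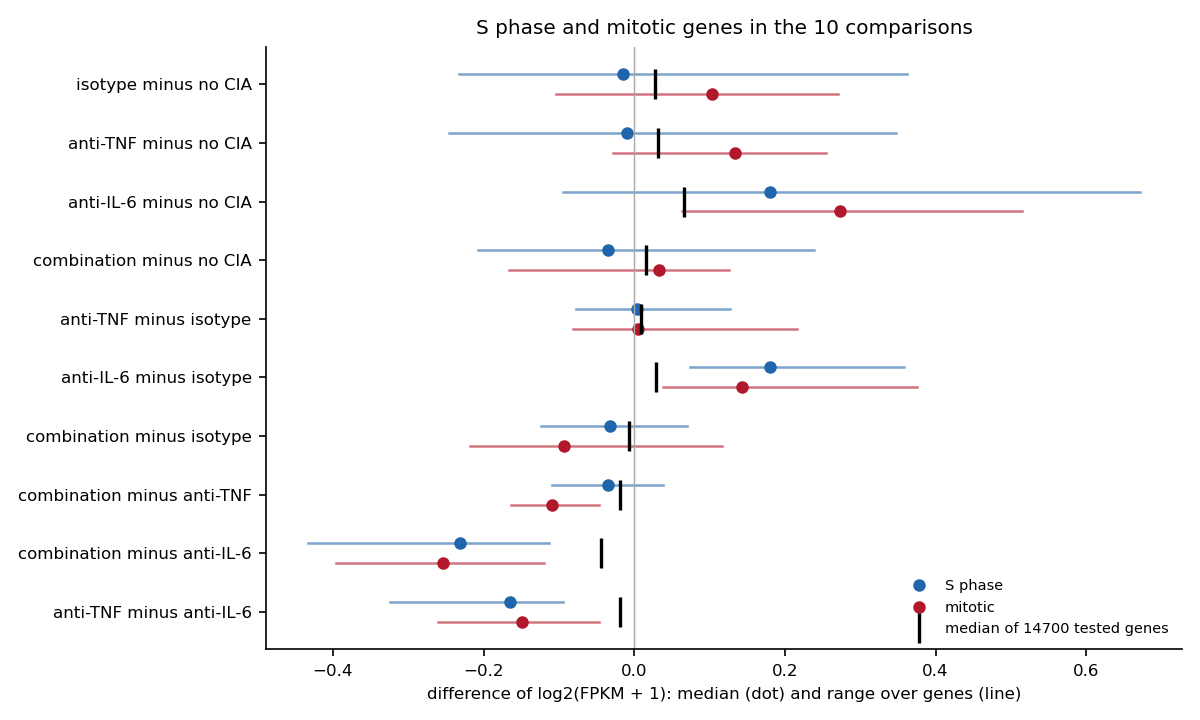
Median (dot) and range over genes (line) of the differences of log2(FPKM + 1) for the 15 S phase and 26 mitotic genes in 10 comparisons, with the median of the 14700 tested genes as a black bar. The medians farthest from the black bar are those in which the anti-IL-6 group takes part, and comparisons that share a group are not independent.

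The interaction asked whether the combination differed from the sum of both antibodies' differences from isotype. It was negative for all 41 members (63.4% of all tested genes), with medians of -0.24 over S phase and -0.26 over mitotic genes against -0.05 over all tested genes. No member was called (0.116% of all tested genes were), the smallest adjusted p was 0.219, and 18 had an unadjusted p under 0.05 (43.9%, against 9.57% of all tested genes). With muscle and basal epidermis scores as covariates 38 of 41 were negative, with medians of -0.12 and -0.14, and with the clock score as covariate 38 were, with medians of -0.14 and -0.28.

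Set against mice without arthritis, the anti-IL-6 group again had the largest differences. There 40 of 41 members were higher (62% of all tested genes were), 0 were called (0.558% of all tested genes were), and 15 had an unadjusted p under 0.05 (36.6%, against 28.1% of all tested genes). Rrm2 differed by 0.67 ± 0.17 (95% interval 0.32 to 1.02, adjusted p = 0.0524), and it was called with a pseudocount of 0.1, after median of ratios scaling, with index run as a covariate and in 11 of the 56 fits without 1 mouse, among them the one without no CIA replicate 1 (adjusted p = 0.0227). Over the 11 other alternatives its difference ran from 0.32 to 1.04 and its limma adjusted p from 0.0276 to 1.00, and without anti-IL-6 replicate 13 it was 0.62 (adjusted p = 0.0877). Of all tested genes, 146 were called with a pseudocount of 0.1, 127 after median of ratios scaling and 1608 with index run as a covariate. Without these changes 82 were called. The S phase median was 0.18 and the mitotic median 0.27. After median of ratios scaling they were 0.10 and 0.21, and the median over all tested genes moved from 0.07 to -0.004. The S phase median was 0.04 with muscle and epidermis scores as covariates, 0.03 with granulocyte precursor, erythroid and neutrophil scores and 0.05 with the clock score. Rrm1 differed by 0.31 ± 0.09 (adjusted p = 0.0812), Cdk1 by 0.51 ± 0.17, Top2a by 0.42 ± 0.14, Ccna2 (cyclin A2) by 0.40 ± 0.14 and Pcna by 0.31 ± 0.12. Without no CIA replicate 3, 9 of 15 S phase and 22 of 26 mitotic genes were higher (medians 0.05 and 0.12), and without replicate 1 all 41 (medians 0.32 and 0.41). Gins2 was the member that was lower, and it stood at 20.7, 17.8, 13.3 and 15.7 FPKM in the 4 no CIA mice against 13.0, 16.3 and 17.6 under anti-IL-6.

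No member was called in the other treated groups against no CIA mice. In the anti-TNF group 32 of 41 members were higher and 9 lower (56.8% and 43.2% of all tested genes were, and 0.551% were called), with medians of -0.01 over S phase and 0.13 over mitotic genes, Gins2 at -0.25 ± 0.10 and Rrm2 at 0.35 ± 0.17. Values there for Rrm1, Cdk1, Prc1 and Top2a were 0.18, 0.25, 0.21 and 0.19. In the combination group 23 of 41 were higher and 18 lower (54.1% and 45.9% of all tested genes were, and 0.156% were called), with medians of -0.03 and 0.03, Rrm2 at 0.24 ± 0.17, Gins2 at -0.21 ± 0.10, Tk1 at -0.16, Cdc20 at -0.17, Anln (anillin, of the cleavage furrow) at -0.13 and Top2a at 0.13. Both turn on single no CIA mice: without replicate 1 the medians were 0.14 and 0.25 for anti-TNF and 0.11 and 0.16 for the combination, and without replicate 3 they were -0.09 and -0.03 for anti-TNF and -0.15 and -0.13 for the combination. They also moved with scaling: after median of ratios scaling 29 of 41 members were higher for anti-TNF and 17 for the combination.

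The other S phase and mitotic genes had the same directions in nearly all cases. For anti-IL-6 minus isotype the brakes of the cycle had a median near that of all tested genes (0.04 and 0.03). Of 38 further S phase genes tested, 38 were higher under anti-IL-6 than in isotype, with a median of 0.16 and 1 called, Pole, the leading-strand polymerase (6.42 against 4.70 FPKM, difference 0.37 ± 0.10, adjusted p = 0.0461). Of 58 further mitotic genes 55 were higher (median 0.16, 0 called). Of 27 regulators of the G1 phase, which precedes S phase, 20 were higher (median 0.10), and of 19 CDK inhibitors and other brakes 13 (median 0.04), with 0 called in either. In the combination group against anti-IL-6, 37 of the 38, 57 of the 58, 20 of the 27 and 13 of the 19 were lower, with 0 called. The background for these counts is the share of tested genes given above, 60% higher and 65.5% lower. As deviations from group means over 56 mice, the other S phase genes had r = 0.98 with the S phase score. The other mitotic genes had r = 0.99 with the mitotic score. G1 regulators had r = 0.92 with the S phase and 0.82 with the mitotic score, and the brakes 0.81 and 0.78. The counts of these 4 lists are therefore not independent of those of the members.

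Levels of the 41 genes varied together between mice of the same group. Pearson's r of deviations from the group mean over the 56 mice had a median of 0.83 over the 105 pairs of S phase genes, 0.84 over the 325 pairs of mitotic genes and 0.73 over the 390 pairs between the sets. Mcm5 and Mcm6 were the closest pair, at 0.958, and Mcm3 with Anln the loosest, at 0.258. The 2 scores had r = 0.86 (Spearman's rho 0.84, r = 0.84 without the 2 mice farthest out on the S phase score, and 0.88 after taking out index run too). These r values describe genes measured in the same libraries and carry no test. Because the 41 genes varied together, the counts of members by direction or unadjusted p are not counts of independent observations. Setting them beside the shares of all tested genes is a description and no test of enrichment.

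The tested genes outside the list that were most alike are given by their r with each score. For the S phase score they were Clspn (r = 0.936), Fen1 (0.933), Wdhd1 (0.926), Lig1 (0.924), Dnmt1 (0.923), Mcm10 (0.917), Atad2 (0.916), Mad2l1 (0.916), Gmnn (0.915) and Ncaph (0.910). For the mitotic score they were Iqgap3 (0.945), Incenp (0.945), Racgap1 (0.943), Nek2 (0.937), Melk (0.935), Ncaph (0.923), Nuf2 (0.923), Pbk (0.922), Kif22 (0.918) and Tacc3 (0.914). The median r over all tested genes was 0.28 with either score. Ncaph, a condensin subunit, was the gene in both groups of 10.

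The muscle score varied opposite to both sets. FPKM is scaled to each library's mapped fragments, so levels of muscle genes and of other genes are not independent within a library. The part of this scaling in the r values below was not tested. The 12 skeletal muscle markers were 12 of 12 lower under anti-IL-6 than in isotype (0 called, median -0.73) and 12 of 12 higher in the combination than under anti-IL-6 (0 called, median 0.93). Their summed level ran from 2265 to 30698 FPKM in isotype mice (median 16005), from 1421 to 30965 under anti-IL-6 (median 8245) and from 3599 to 47653 in the combination group (median 16444), and no marker of that list was at 0. Over the 56 mice, deviations of the muscle score had r = -0.60 with the S phase score (rho -0.55, -0.65 without the 2 farthest mice). With the mitotic score r was -0.62 (rho -0.57, -0.64 without the 2 farthest mice). Muscle was not the only tissue whose markers varied with these levels. Macrophage markers had r = 0.60 with the S phase score (rho 0.43, 0.48 without the 2 farthest mice). Within single antibody groups this r ran from 0.39 to 0.86. With the mitotic score macrophage markers had r = 0.36, from -0.05 to 0.74 within groups. Mature neutrophil markers had 0.47 with the S phase and 0.25 with the mitotic score. With muscle and basal epidermis scores as covariates, the medians of anti-IL-6 minus isotype were 0.10 over S phase and 0.08 over mitotic genes, with 39 of 41 higher, and those of combination minus anti-IL-6 were -0.12 and -0.16, with 41 of 41 lower.

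**Figure D5:**
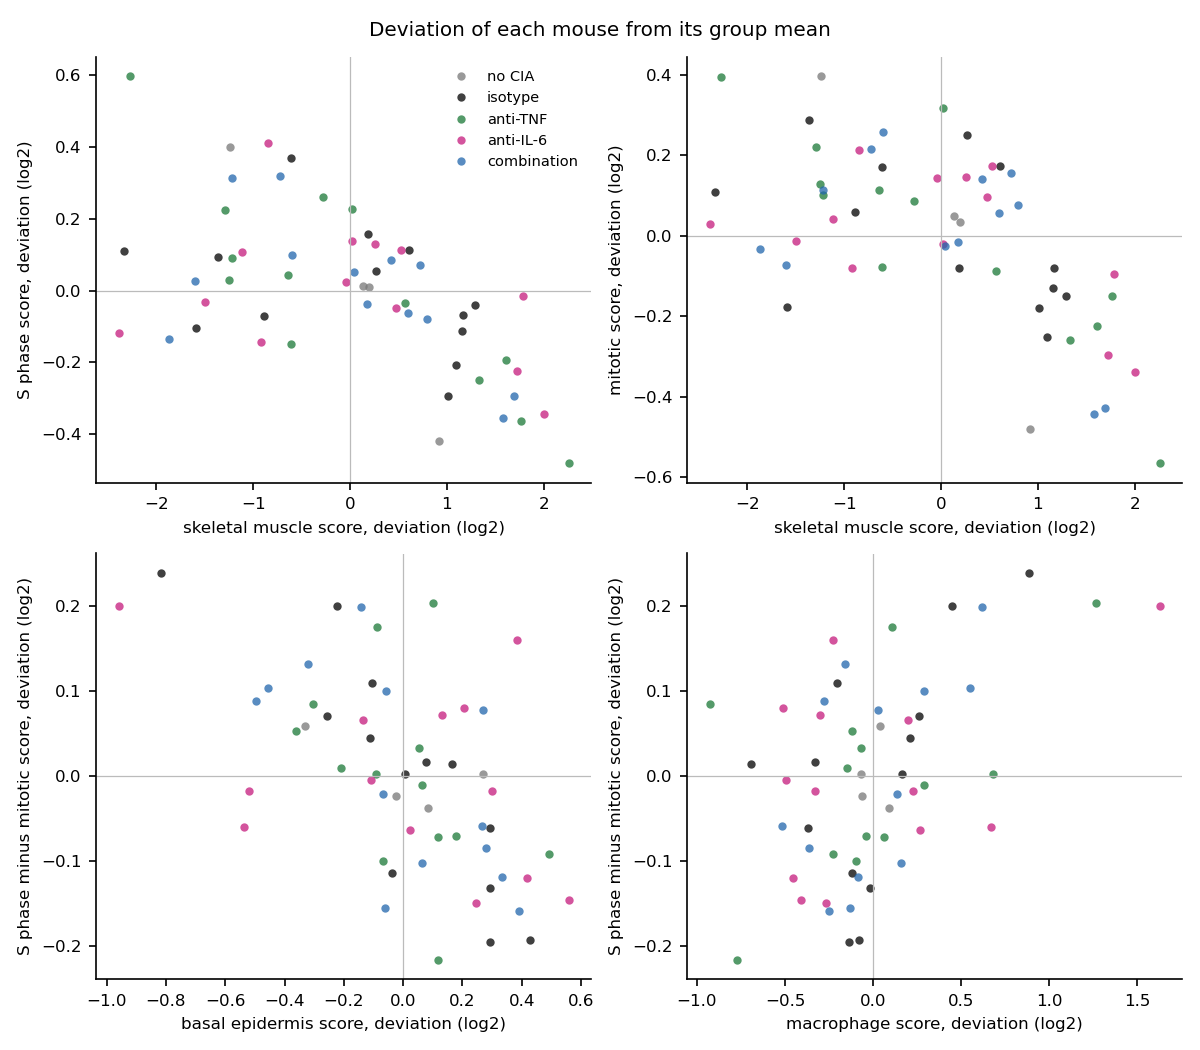
Deviation of each mouse from its group mean. The upper panels set S phase and mitotic scores against the skeletal muscle score, and the lower panels set S phase minus mitotic score against basal epidermis and macrophage scores. Points are mice coloured by group, and all axes are on the log2 scale. Scores of both sets are lower in mice with higher muscle scores (r = -0.60 and -0.62), and all levels are scaled to each library's mapped fragments.

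Within a group, the balance between the 2 sets varied with markers of several tissues. S phase minus mitotic score had r = -0.57 with the score of 10 basal epidermis markers (rho -0.57, -0.48 without the 2 farthest mice, -0.52 with index run taken out) and 0.48 with that of 12 macrophage markers (rho 0.35, 0.36 without the 2 farthest, 0.41 with index run taken out). Endothelial markers had 0.48 (rho 0.44, 0.44 without the 2 farthest), mature neutrophil markers 0.43 and suprabasal epidermis markers -0.52. Within single groups of 13 it ran from -0.86 to -0.40 for basal epidermis from 0.42 to 0.56 for macrophage, from 0.16 to 0.70 for endothelial and from -0.87 to 0.12 for suprabasal epidermis markers. Anln was the member least tied to S phase genes (median r 0.42, against 0.70 with the other mitotic genes). All 12 macrophage markers were higher under anti-IL-6 than in isotype (0 called, median 0.22) and all 12 were lower in the combination than under anti-IL-6 (0 called, median -0.19). Their summed level ran from 527 to 2021 FPKM in isotype (median 915), from 760 to 3528 under anti-IL-6 (median 944) and from 624 to 1650 in the combination group (median 953), so the medians of these groups were close. Mature neutrophil markers were 11 of 12 higher and then 11 of 12 lower in these 2 comparisons, and osteoclast markers 9 of 9 tested in each (0 called). Summed neutrophil markers ran from 63.5 to 1343 FPKM in isotype, from 88.4 to 2879 under anti-IL-6 and from 78.9 to 1275 in the combination group, and summed osteoclast markers from 109 to 1294, from 124 to 2322 and from 118 to 899. The part of macrophages and osteoclasts in the differences was not tested, and a fit with the neutrophil score among its covariates is given with the marrow markers.

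Markers of marrow precursors were mostly lower under anti-IL-6 than in isotype, by less than the spread between mice. The granulocyte precursor score was 1.72 ± 1.11 in isotype and 1.58 ± 0.63 under anti-IL-6 (SD, n = 13 each). The erythroid precursor score was 2.35 ± 0.75 and 1.97 ± 0.56. In this comparison 40% of all tested genes were lower. Of 10 tested granulocyte precursor markers 0 were higher under anti-IL-6 than in isotype (0 called, median -0.16), and of 8 erythroid precursor markers 1 was (0 called, median -0.56). Their scores had r = -0.04 and -0.09 with the S phase score and -0.15 and -0.19 with the mitotic score over 56 mice, but within the 13 combination mice granulocyte precursor markers had -0.70 and -0.80, and within the anti-TNF mice 0.37 and 0.31. Mpo and Elane, which define granulocyte precursors, ran over all libraries from 0.285 to 64.6 and from 0.0698 to 47.4 FPKM. With granulocyte precursor, erythroid and neutrophil scores as covariates the medians of anti-IL-6 minus isotype were 0.13 and 0.11. Beyond this fit, the part of marrow cells in the differences was not tested.

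Clock genes were among the called genes of the same comparisons. Of 10 output genes of the circadian activators 6 were called lower under anti-IL-6 than in isotype (0.952% of all tested genes were called) and 6 called higher in the combination than under anti-IL-6 (0.102% were called). Their activator minus antiphase score stood at 1.93 without CIA, 1.22 in isotype, 0.61 under anti-TNF, 0.04 under anti-IL-6 and 1.11 in the combination group. With that score as a covariate the medians of anti-IL-6 minus isotype were 0.09 over S phase and 0.18 over mitotic genes, with 37 of 41 higher.

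The front paw was as labelled, with markers of skin, muscle, connective tissue and bone in every library (Krt5 from 894 to 3261, Acta1 from 375 to 11038, Col1a1 from 153 to 3246 and Bglap from 13.0 to 1098 FPKM). Depth, estimated from the steps between low values, ran from 40.1 to 54.9 M fragments (mean 47.0 ± 3.62, SD, n = 56). Index numbers in the titles were divided here into 5 stretches, cut where the mouse numbers in the titles start again from low values. The index numbers have no gap at these cuts, and the labels do not call the stretches batches. Within the 3 that hold both groups, anti-IL-6 minus isotype was 0.23, 0.28 and 0.11 for S phase and 0.06, 0.34 and 0.09 for mitotic scores, 2 of them resting on 1 isotype mouse and the third on 1 anti-IL-6 mouse. Combination minus anti-IL-6 was -0.26, -0.23 and -0.04 for S phase and -0.31, -0.17 and -0.20 for mitotic scores, the last stretch setting 1 mouse against 1. Of the 41 genes, 20 overlap another gene and 14 an antisense one, and whether counting used strand is not given in the sources used here, so reads of such partners cannot be told apart. Ube2c lies across from Tnnc2, a muscle troponin gene at a mean of 2146 FPKM. As deviations from group means over the 56 mice their levels had r = -0.50, and those of Tk1 and Afmid -0.28. Other such pairs had positive r: Kif20a with Cdc23 0.67, Nusap1 with Oip5 0.66, Cdc20 with Elovl1 0.62 and Mcm7 with Cops6 0.36. Values were 0.29 for Ccna2 with Exosc9, 0.12 for Prc1 with Rccd1 and 0.07 for Gins2 with Gse1. Elovl1 had a mean of 117 FPKM.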

How the data were processed

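RNA of front paws was sequenced from 56 mice in 5 groups, with stranded TruSeq mRNA libraries and paired-end NovaSeq reads, per the labels' protocols. The authors deposited FPKM values, read as such from the values themselves, 1 column per library. DESeq2, without a version, is named in the submitters' processing notes. No source used here gives the aligner, genome build, annotation or use of strand. Of the low values, 70.9% to 77.0% lay within 0.05 of a step from a whole multiple of 1 fragment's worth, so counts were not rebuilt.

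The members and all gene lists were chosen with earlier results of these data known. Genes with a mean of at least 1 FPKM in any group were tested with limma 3.58.1 in R 4.3.3 (trended, robust prior) on log2(FPKM + 1), a pseudocount of 1. P-values are two-sided and differences have 95% intervals. The fit was tested on simulated data first. In each comparison the text names the 3 members of either set with the largest difference, where values are shown per mouse also 8 fixed markers (Mki67, Top2a, Cdk1, Ccnb1, Mcm2, Mcm5, Pcna, Rrm2), and from other lists called genes. Others were named after their values were seen. Python 3.11.15 with numpy 2.4.6, pandas 2.3.3 and matplotlib 3.10.9 ran the rest. Alternatives were pseudocounts of 0.1 and 10, other filters, scaling, groups and covariates, and leaving out libraries.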

Additional observations from a re-analysis of the deposited data

How the results depend on the processing

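Leaving out 1 of the 56 libraries at a time gave 0 to 3 called members for anti-IL-6 minus isotype, 0 to 2 for anti-IL-6 minus no CIA, and 0 for the other 8 comparisons and the interaction. The other alternatives that gave calls were median of ratios scaling (3 for anti-IL-6 minus isotype and 1 for anti-IL-6 minus no CIA), groups fitted alone (2 for anti-IL-6 minus isotype), muscle and basal epidermis covariates (1 for anti-IL-6 minus isotype), a pseudocount of 0.1 (1 for anti-IL-6 minus no CIA) and index run as a covariate (1 each for isotype and anti-TNF and 2 for anti-IL-6, all against no CIA), and the cause was not tested. With index run as a covariate the S phase medians against no CIA were 0.30 for isotype, 0.36 for anti-TNF, 0.55 for anti-IL-6 and 0.29 for the combination, estimates that rest on the 2 isotype libraries that share a run with the 4 no CIA libraries. All other medians moved by less than 1 SD between mice (0.227 for S phase, 0.223 for mitotic scores). This margin is wider than medians such as 0.18 and 0.14 for anti-IL-6 minus isotype, so it does not show that they are stable. For isotype minus no CIA the mitotic median ran from -0.05 to 0.25 when 1 library was left out. The value of Anln, combination minus no_CIA, was 0.000926 with muscle and epidermis covariates (-0.13 without), and that of Top2a, combination minus no_CIA, ran from -0.025 without no CIA replicate 3 to 0.27 without no CIA replicate 1. Under each alternative at least 37 of 41 members were higher under anti-IL-6 than in isotype, and at least 40 were lower in the combination than under anti-IL-6. No paired analysis was possible because replicate numbers were assigned here by deposition order and link no mouse to one of another group. Counts over all tested genes varied more, from 0 (clock covariate) to 410 (muscle and epidermis covariates) around 140 for anti-IL-6 minus isotype and from 0 to 32 around 15 for combination minus anti-IL-6. Against no CIA they ran from 0 to 2744 around 23 for isotype, from 0 to 3264 around 81 for anti-TNF, from 0 to 1608 around 82 for anti-IL-6 and from 0 to 118 around 23 for the combination. They ran from 0 to 71 around 17 for the interaction and from 0 to 7 around 0 for anti-TNF minus isotype. The precision is limited by the 4 no CIA mice and by depth known only from low values.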
